A study of Rattus norvegicus with 4 samples.

Results

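Genes that mark subtypes of dopamine neurons were described in single nuclei of the rat ventral tegmental area (VTA): Aldh1a1, Anxa1, Neurod6, Slc26a7, Wnt2, Tmem207, Fgf20, Fignl1 and Slc10a4. The 9 genes, of 32883 in the count matrices, were chosen by symbol with their levels in these same nuclei in view, so their levels and pairings are given as a description with no test. They were read in nuclei holding at least 2 UMIs of Ddc, the gene of the enzyme that makes dopamine from L-DOPA, and at least 2000 UMIs in all. A UMI (unique molecular identifier) stands for 1 captured RNA molecule. Of 20620 nuclei kept, 14482 reached 2000 UMIs and 940 of these passed the Ddc threshold.

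The study used female and male adult Sprague-Dawley rats with an age label of 90 to 120 days, experimentally naive, with no genotype or treatment differing between groups. There were 2 libraries per sex (female 1, female 2, male 1 and male 2), each from the pooled tissue of 3 animals. Frozen tissue dissected around the VTA was lysed, nuclei stained with the DNA dye 7-AAD were sorted, and libraries were made with 10x Genomics 3' (v3) chemistry. Nuclear RNA is rich in unspliced transcripts, and an animal's own values within a pool are not known.

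Dopamine neurons make dopamine from tyrosine in a pathway that starts with tyrosine hydroxylase (Th) and ends with Ddc, and they take released dopamine back up through the transporter Slc6a3. They fall into subtypes that differ in position, projection and vulnerability in disease models. Some VTA neurons also carry the machinery for GABA (Gad1, Gad2 and the vesicular transporter Slc32a1) or glutamate (Slc17a6) release. Aldh1a1 and Anxa1 are best known from ventral nigral dopamine neurons, and Neurod6 from a medial VTA group, in rodents.

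The Ddc nuclei were divided in a fixed order. Nuclei with at least 2 UMIs each of Th and Slc6a3 are called Th Slc6a3 nuclei. Female 1 and female 2 gave 73 and 80 of them, male 1 and male 2 73 and 86 (312 in all). Of the others, those with at least 2 Gad2 UMIs and no Gad1 UMI numbered 41, 37, 26 and 45 in the same order of libraries (149 in all), and are called Gad2 nuclei. The remaining Ddc nuclei numbered 479. As reference, 1105 GABA nuclei (Gad1) and 1428 glutamate nuclei (Slc17a6) lay under the Ddc threshold. Median depth was 9154 UMIs in Th Slc6a3 nuclei, 8531 in Gad2 nuclei, 7043 in remaining Ddc nuclei, 7415 in GABA nuclei and 8160.5 in glutamate nuclei. Levels are given in CPM, a gene's UMIs summed over a group of nuclei of 1 library, divided by all UMIs of that group and scaled to a total of 1000000, in the order female 1, female 2, male 1 and male 2. Beside the tests of splits and gates, CPM of single genes other than the members use totals without the gate genes and the split's member.

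The libraries held 3628 to 6955 barcodes and 19714338 to 25824289 UMIs, and any pair of libraries shared 4 to 9 barcode sequences. A nucleus whose Th or Slc6a3 UMIs were missed falls into the Gad2 group if it meets the Gad2 rule, and otherwise into the remaining group. In Gad2 nuclei Th stood at 123 CPM and Slc6a3 at 39.5. The dopamine identity of the gates was checked with genes the gates did not use. Slc18a2, the vesicular monoamine transporter, stood at 403 ± 56.1 CPM (SD, n = 4) in Th Slc6a3 nuclei and at 44.1 ± 23.6 in Gad2 nuclei. The noradrenaline markers Dbh, Slc6a2 and Pnmt were at 0 in all 3 Ddc groups. The summed serotonin markers reached 10.6 to 141 CPM in the remaining Ddc nuclei and 0 to 2.99 in Th Slc6a3 and Gad2 nuclei, where Slc6a4, Fev and Gata2 were at 0. The sum also takes in Gata3, and it stood at 54.2 to 71.4 CPM in GABA nuclei, where Fev was at 0. Nothing in the labels says that female 1 and male 1, or female 2 and male 2, belong together. In the sex tests p-values measure the spread between pooled libraries of the same sex. In the tests of gates and splits they measure how the difference within a library varies over the 4 pooled libraries.

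Aldh1a1 (ENSRNOG00000017619) encodes a cytosolic aldehyde dehydrogenase that makes retinoic acid from retinal and clears dopamine's aldehyde. Its level in Th Slc6a3 nuclei was 323, 266, 492 and 338 CPM. In Gad2 nuclei it was 88.8, 50.9, 68.2 and 93.7, and in remaining Ddc nuclei 23.6, 25.2, 30.3 and 69.8. Every library thus had more Aldh1a1 in Th Slc6a3 nuclei than any library had in Gad2 nuclei, and the means differed 4.70-fold (355 ± 96.4 and 75.4 ± 19.7, SD, n = 4). The Gad2 and remaining groups overlapped, and GABA and glutamate nuclei were low and also overlapped (5.08 ± 1.32 and 4.97 ± 1.44). Astrocytes, which are known to use this enzyme, stood at 96.0 ± 17.4 CPM, above the mean of the Gad2 nuclei.

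Within Th Slc6a3 nuclei Aldh1a1 was unevenly spread. It had a UMI in 124 of the 312 nuclei, 80 of them held at least 5 UMIs, and 1 nucleus held 39. To compare shares across depths, each nucleus was thinned to 2000 UMIs (the chance that it would still show the gene). The thinned share with Aldh1a1 was 28.2% ± 4.11 (SD, n = 4) in Th Slc6a3 nuclei, 9.77% ± 0.835 in Gad2 nuclei and 14.6% ± 1.87 in astrocytes. Oligodendrocytes, which should lack the gene and so show what free RNA can give, had 0.725% at a median depth of 3001.5 UMIs.

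Anxa1 (ENSRNOG00000017469), a phospholipid-binding annexin, was sparse, with 3, 9, 16 and 16 UMIs in Th Slc6a3 nuclei. These gave 4.09, 11.4, 17.3 and 20.5 CPM. In Gad2 nuclei it was at 9.19, 0, 8.90 and 2.60, from 7 UMIs in all, and the groups overlapped. The 44 UMIs of Th Slc6a3 nuclei came from 25 nuclei, 17 of which held a single UMI. In remaining Ddc nuclei it was at 0 in both female libraries and at 1.73 and 7.40 in the male ones.

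Neurod6 (a basic helix-loop-helix transcription factor) stood at 53.2, 42.9, 61.7 and 65.2 CPM in Th Slc6a3 nuclei. The remaining Ddc nuclei had 9.01, 9.61, 7.79 and 32.8, and the Gad2 nuclei 0, 8.98, 2.97 and 2.60. The Th Slc6a3 libraries lay above all others, at 3.77 times the mean of the remaining Ddc nuclei. The Gad2 nuclei, with 5 UMIs in all, did not stand above GABA nuclei (4.44 ± 0.566), and the remaining Ddc nuclei overlapped with glutamate nuclei (9.34 ± 3.31). Neurod6 was thus the member least tied to Ddc: 40.5% of its UMIs lay in Ddc nuclei, 20.4% in glutamate nuclei and 31.8% in nuclei of no gate. A UMI of Neurod6 was found in 88 Th Slc6a3 nuclei.

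**Figure D1:**
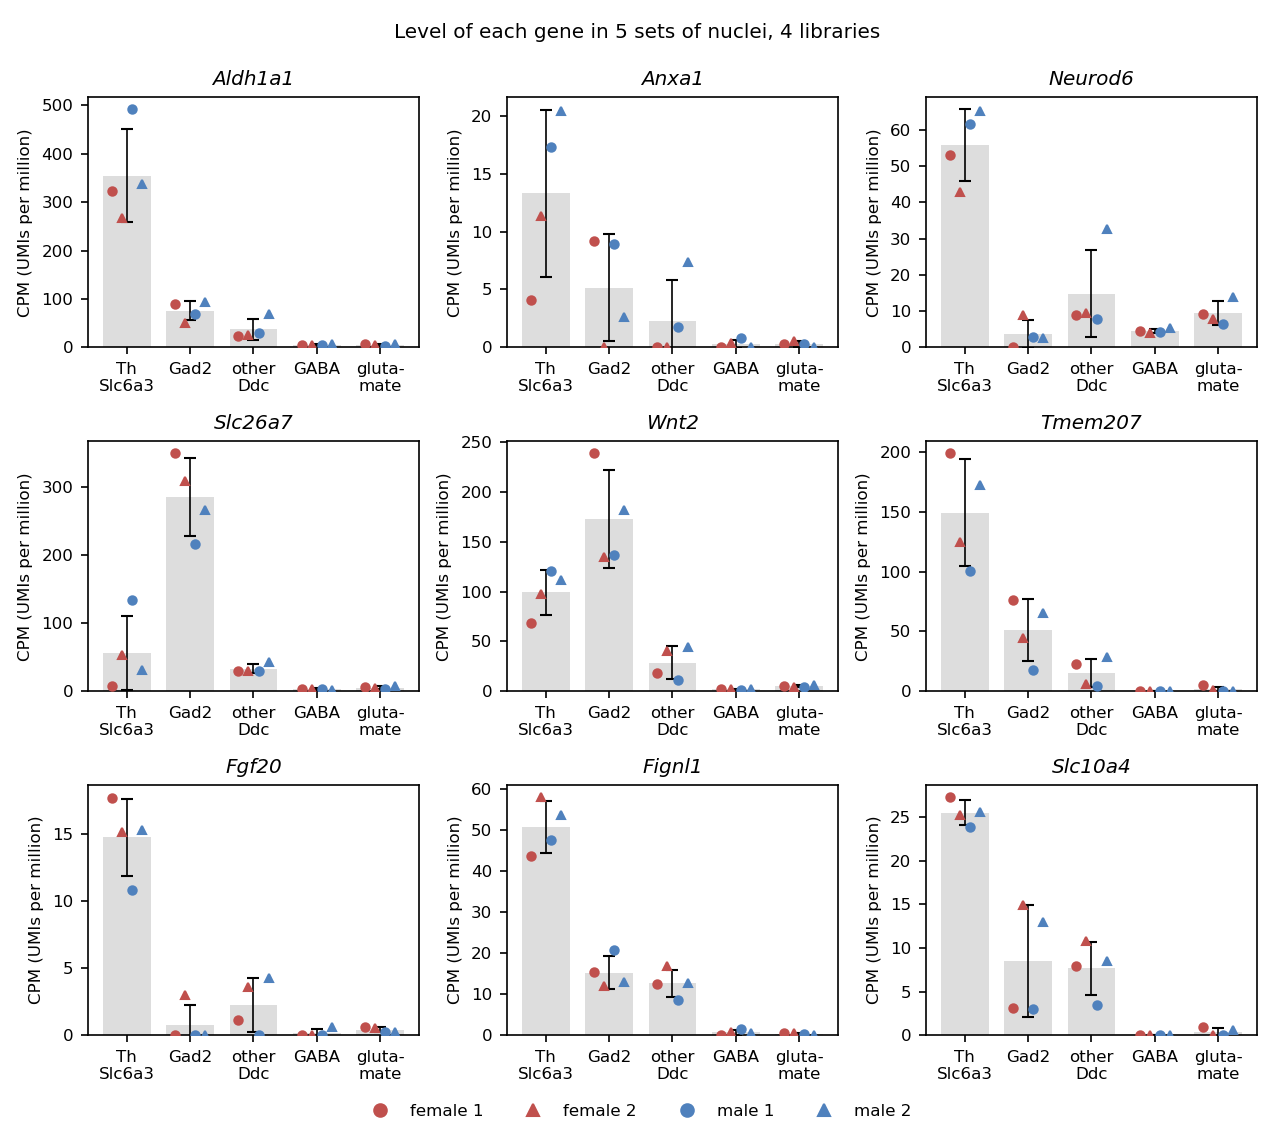
Level of each of the 9 genes in Th Slc6a3, Gad2, remaining Ddc, GABA and glutamate nuclei, in CPM. Points are the 4 libraries and grey bars the mean ± SD; Slc26a7 and Wnt2 have their highest libraries in the Gad2 group, and the other 7 have their highest mean in the Th Slc6a3 group.

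Wnt2 and Fgf20 encode secreted signals. Wnt2, a Wnt ligand, was at 239, 135, 136 and 182 CPM in Gad2 nuclei and at 68.2, 97.2, 120 and 111 in Th Slc6a3 nuclei. The lowest Gad2 library exceeded the highest Th Slc6a3 library, and the means differed 1.74-fold (173 ± 49.1 and 99.2 ± 22.7). The remaining Ddc nuclei had 28.6 ± 16.5, and GABA and glutamate nuclei 1.84 and 5.01. Of all Wnt2 UMIs in nuclei with at least 2000 UMIs, 80.9% lay in Ddc nuclei, which were 6.49% of those nuclei and held 11.3% of their UMIs.

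Fgf20, a fibroblast growth factor, was at 17.7, 15.1, 10.8 and 15.3 CPM in Th Slc6a3 nuclei, from 47 UMIs. In Gad2 nuclei only female 2 had any (2.99), and remaining Ddc nuclei had 1.13, 3.60, 0 and 4.23. The Th Slc6a3 libraries did not overlap with either, and their mean (14.8 ± 2.88) was 6.59 times that of the remaining Ddc nuclei. Of 36 Th Slc6a3 nuclei with Fgf20, 28 held 1 UMI.

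The membrane carriers gave opposite orders. Slc26a7, an anion exchanger, was at 349, 308, 217 and 266 CPM in Gad2 nuclei and at 8.19, 53.0, 133 and 30.7 in Th Slc6a3 nuclei. The Gad2 mean (285 ± 56.9) was 5.06 times the Th Slc6a3 mean (56.3 ± 54.5), with no overlap. In Th Slc6a3 nuclei the spread between libraries was as large as the mean, and these libraries overlapped with the remaining Ddc nuclei (29.3, 30.0, 30.3 and 42.3). The thinned share of nuclei with Slc26a7 was 36.0% ± 7.76 in Gad2 nuclei and 6.11% ± 3.80 in Th Slc6a3 nuclei.

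Slc10a4, an orphan carrier of the bile acid transporter family found on synaptic vesicles, had the least spread relative to its mean of all 9 genes in Th Slc6a3 nuclei: 27.3, 25.2, 23.8 and 25.6 CPM. These came from only 20, 20, 22 and 20 UMIs, and the spread was not set against counting error. In Gad2 nuclei it was at 3.06, 15.0, 2.97 and 13.0, and in remaining Ddc nuclei at 7.88, 10.8, 3.46 and 8.46. The mean in Th Slc6a3 nuclei was 3.00 times that in Gad2 nuclei, and the 2 lower groups overlapped. No UMI was found in the 1105 GABA nuclei, which allows a share of up to 0.271% with a UMI (counting error only), and 89.7% of its UMIs lay in Ddc nuclei.

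Tmem207, a transmembrane protein of little-known function, was at 199, 125, 101 and 173 CPM in Th Slc6a3 nuclei, 76.6, 44.9, 17.8 and 65.1 in Gad2 nuclei and 22.5, 6.01, 4.33 and 28.6 in remaining Ddc nuclei. The Th Slc6a3 mean was 2.92 times the Gad2 mean without overlap, while the Gad2 and remaining groups overlapped. GABA nuclei had 0.242 and glutamate nuclei 1.54, and 95.1% of the gene's UMIs lay in Ddc nuclei, the highest share among the members. In Th Slc6a3 nuclei it was detected in 107, of which 34 held at least 5 UMIs.

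Fignl1, an AAA ATPase known from DNA repair, was at 43.7, 58.1, 47.7 and 53.7 CPM in Th Slc6a3 nuclei, 15.3, 12.0, 20.8 and 13.0 in Gad2 nuclei and 12.4, 16.8, 8.65 and 12.7 in remaining Ddc nuclei. The first group stood 3.33-fold above the second, and the other two overlapped. In the RefSeq annotation of rat assembly GRCr8, Fignl1 on chromosome 14 overlaps Ddc on the same strand, with Ddc as its neighbour. Ddc is the gene that defines these nuclei. The counts use another build (rn6), and whether the overlap bears on the counts of either gene was not tested. Per 100 Ddc UMIs, Fignl1 had 2.61, 3.75, 2.95 and 3.78 UMIs in Th Slc6a3 nuclei, 2.06, 1.75, 3.50 and 2.07 in Gad2 nuclei and 2.02, 2.28, 1.80 and 1.74 in remaining Ddc nuclei. On this scale the Th Slc6a3 and Gad2 groups overlapped. Of the 115 Th Slc6a3 nuclei with Fignl1, 85 held 1 UMI.

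The same scale was applied to the other members. Per 100 Ddc UMIs, Aldh1a1 had 22.7 UMIs in Th Slc6a3 nuclei, 11.4 in Gad2 nuclei and 5.78 in remaining Ddc nuclei (means of 4 libraries). Slc26a7 had 3.58, 42.6 and 5.23 in the same order of groups, so its Th Slc6a3 and remaining groups changed places, and Wnt2 had 6.41, 25.9 and 4.22. Tmem207 (9.60 and 7.54) and Slc10a4 (1.63 and 1.29) came closer together between Th Slc6a3 and Gad2 nuclei. Ddc itself was at 1420 to 1670 CPM in the former and 593 to 744 in the latter.

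Most Ddc nuclei of the first 2 groups held some member. No member was detected in 11.2% of Th Slc6a3 nuclei, 13.4% of Gad2 nuclei and 57.2% of remaining Ddc nuclei, against 89.2% of GABA and 83.8% of glutamate nuclei. At least 3 members were detected in 45.2%, 29.5% and 5.43% of the 3 Ddc groups, 0% of GABA nuclei and 0.0700% of glutamate nuclei. These shares are not thinned, and the groups' median depths are given above.

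The 27 nuclei that passed both gates had Th, Slc6a3 and Gad2 at 2 UMIs or more and Gad1 at 0. Females gave 2 and 10 of them and males 8 and 7, and they were counted as Th Slc6a3 nuclei. They carried 159 of the 195 Slc26a7 UMIs of the Th Slc6a3 group, with 21 of the 27 positive for Slc26a7 and 24 for Wnt2, but only 2 for Aldh1a1 and none for Anxa1. Without them, Slc26a7 fell from 8.19, 53.0, 133 and 30.7 to 0, 16.5, 19.9 and 12.9 CPM. Wnt2 was then at 68.1, 76.3, 86.0 and 97.2, and Aldh1a1 at 330, 311, 566 and 376. Their median depth was 11334 UMIs against 8949 in the other Th Slc6a3 nuclei, and whether some are undetected doublets was not tested.

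**Figure D2:**
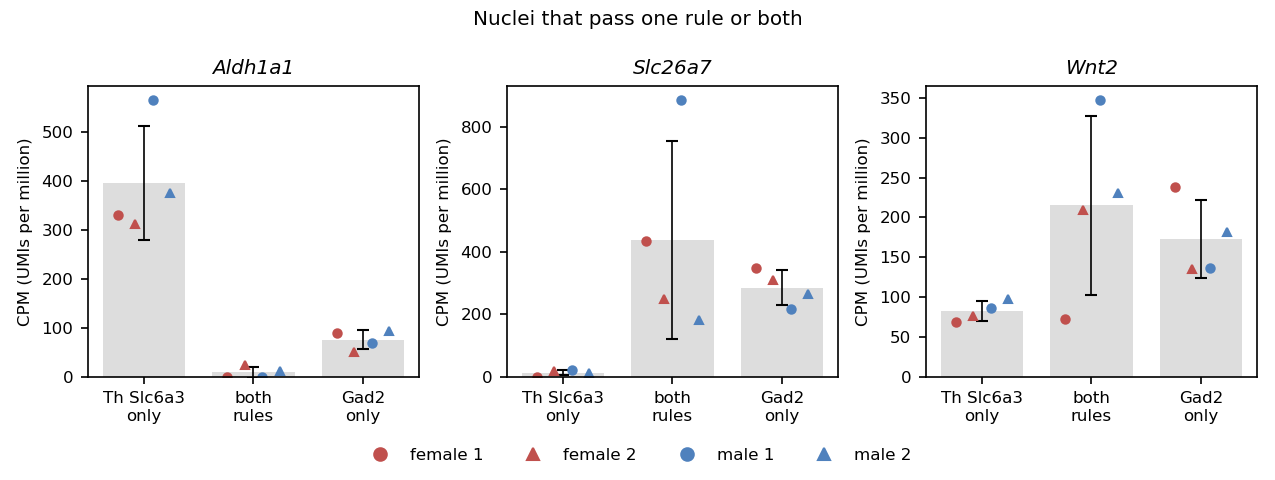
Aldh1a1, Slc26a7 and Wnt2 in CPM in Th Slc6a3 nuclei without those passing both gates (left), nuclei passing both gates (middle) and Gad2 nuclei (right), with points for the 4 libraries and grey bars for the mean ± SD. Slc26a7 lies at 182 to 886 in the nuclei passing both gates and at 0 to 19.9 in the rest of the Th Slc6a3 nuclei.

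Co-detection was read as the number of nuclei with both genes over the number that the 2 thinned shares would give if independent within each library, at 2000 UMIs per nucleus. A ratio above 1 means the pair was found together more often than that. Aldh1a1 and Anxa1 had a ratio of 2.42 in Th Slc6a3 nuclei (1.61 to 3.85 over the 4 libraries). Without thinning, 23 of the 25 nuclei with Anxa1 (92.0%) also had Aldh1a1, so Anxa1 nuclei were nearly a subset of Aldh1a1 nuclei. In Gad2 nuclei all 5 Anxa1 nuclei had Aldh1a1.

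Aldh1a1 and Neurod6 had a ratio of 1.94 (1.73 to 2.12), and 61 of the 88 Neurod6 nuclei (69.3%) had Aldh1a1. With the nuclei passing both gates left out, the ratios were 2.19 for Anxa1 and 1.79 for Neurod6, above 1 as before. Neurod6 was also found with Wnt2 more often than independence gives (1.52, and 1.73 without the nuclei passing both gates). It was rarely found beside Sox6, a transcription factor of another dopamine neuron subtype: their ratio was 0.0428 (0.0114 to 0.139). Without thinning, 5 of the 285 Th Slc6a3 nuclei that did not pass both gates held both genes. Of these 285, 86 held Neurod6 and 62 held Sox6.

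These 3 genes are shown with the stretch around their start sites because 2 of them are neighbours in the genome and Anxa1 and Neurod6 were each found with Aldh1a1 in Th Slc6a3 nuclei. In GRCr8, Anxa1 and Aldh1a1 lie next to each other on chromosome 1, on opposite strands, with 0 protein-coding genes between them. RefSeq promoter windows (250 bases before to 50 after the annotated start, 5′ to 3′ on the gene's strand) were available for 6 of the 9 members. Capitals mark matches to the Neurod E-box CAGATG (read as CATCTG where it lies on the opposite strand) or the TATA box TATAAA. Windows are chr1:227537370-227537669 on the plus strand for Aldh1a1, chr1:227303683-227303982 on the minus strand for Anxa1 and chr4:86180106-86180405 on the minus strand for Neurod6.
Aldh1a1: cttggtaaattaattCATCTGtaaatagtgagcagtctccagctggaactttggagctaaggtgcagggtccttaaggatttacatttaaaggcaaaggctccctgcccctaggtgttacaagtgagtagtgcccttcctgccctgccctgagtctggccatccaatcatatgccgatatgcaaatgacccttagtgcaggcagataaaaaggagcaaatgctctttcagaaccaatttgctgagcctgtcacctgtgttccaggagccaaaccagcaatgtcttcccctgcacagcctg
Anxa1: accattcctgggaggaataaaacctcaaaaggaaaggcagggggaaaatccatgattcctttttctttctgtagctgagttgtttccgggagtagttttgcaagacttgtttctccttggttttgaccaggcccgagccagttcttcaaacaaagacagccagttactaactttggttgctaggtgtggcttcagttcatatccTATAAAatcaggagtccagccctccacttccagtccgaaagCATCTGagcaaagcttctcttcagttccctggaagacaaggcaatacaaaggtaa
Neurod6: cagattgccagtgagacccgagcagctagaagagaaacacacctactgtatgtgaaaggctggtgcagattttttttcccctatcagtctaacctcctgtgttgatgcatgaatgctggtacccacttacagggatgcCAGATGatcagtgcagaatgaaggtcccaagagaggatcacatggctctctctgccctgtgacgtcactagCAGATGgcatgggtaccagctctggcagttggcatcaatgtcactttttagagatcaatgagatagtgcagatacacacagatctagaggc
The CAGATG match stood at -235 from the start in Aldh1a1, at -5 in Anxa1 and at -112 and -41 in Neurod6, and the TATAAA match at -46 in Anxa1. Of 33469 rat promoter windows of the same length, 16.6% hold CAGATG and 14.2% hold TATAAA on either strand. The Nr4a2 motif AAAGGTCA is in 1.43% of all windows, the forkhead motif TGTTTAC of Foxa2 in 3.78%, the Pitx3-type motif TAATCC in 7.17% and the homeodomain motif TAATTA of Lmx1a and Lmx1b in 5.36%, and none of the 6 windows held a match to these 4. The windows of Wnt2, Fignl1 and Slc10a4 held no match. A match describes letters in this window and is not evidence of binding.

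**Figure D3:**
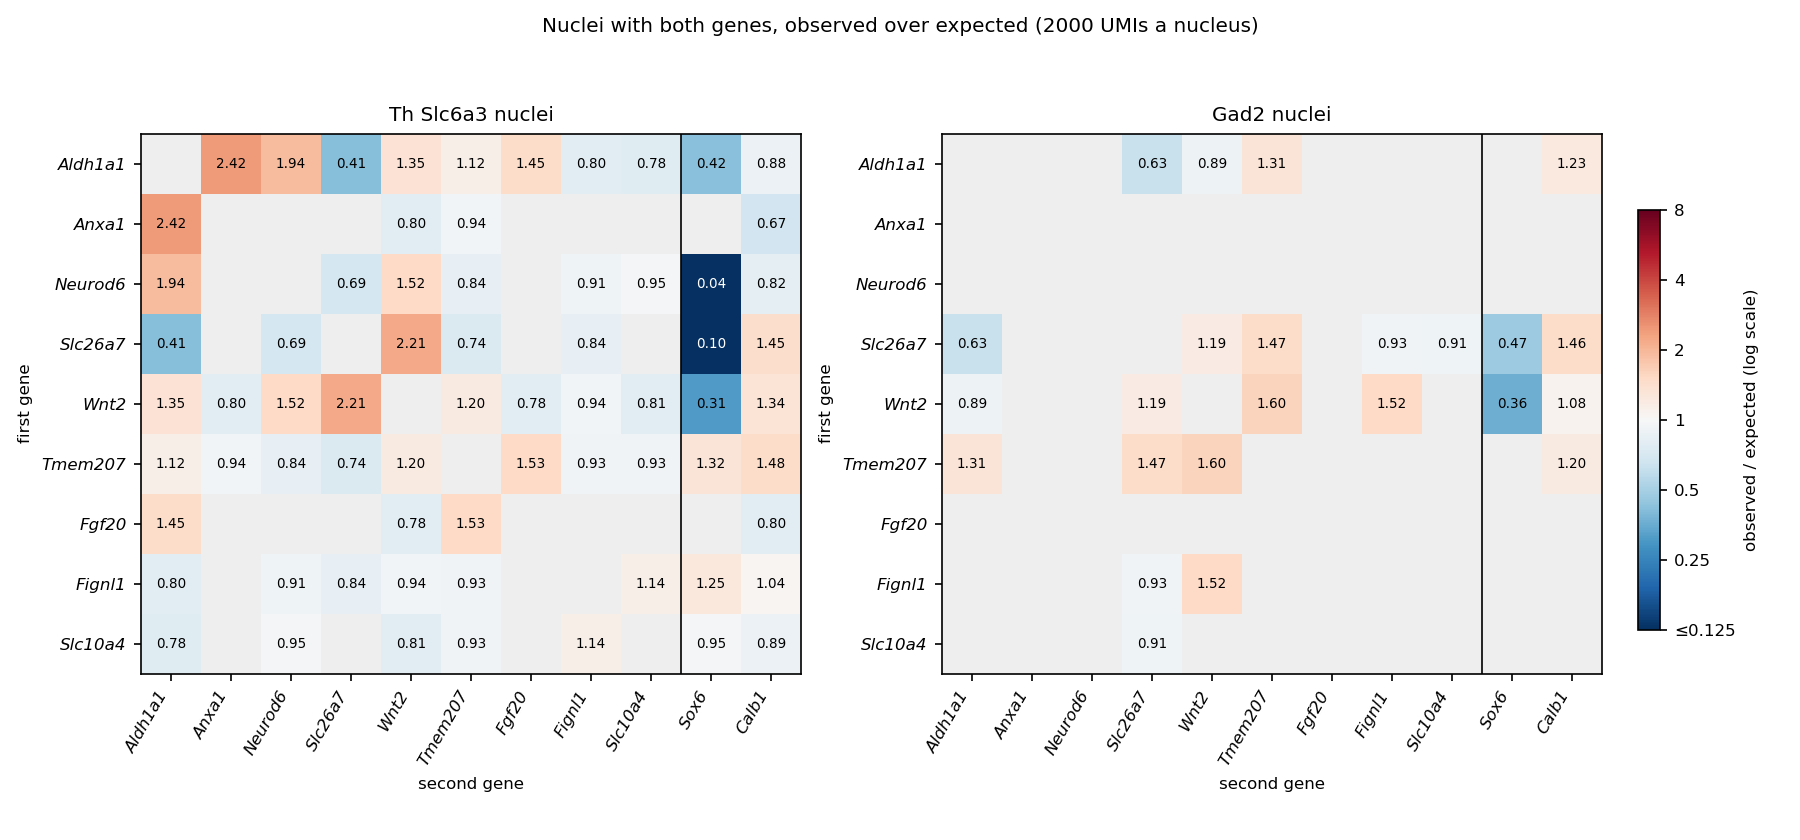
Observed over expected number of nuclei with both genes at 2000 UMIs, for pairs of members, and of members with Sox6 and Calb1, in Th Slc6a3 and Gad2 nuclei, on a log colour scale with the ratio written in each cell; grey cells have an expected number under 1. In Th Slc6a3 nuclei Aldh1a1 with Anxa1 (2.42) and with Neurod6 (1.94) lie above 1, and Aldh1a1 with Slc26a7 (0.410) below.

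The low ratio of Aldh1a1 with Slc26a7 depended on the nuclei passing both gates. It was 0.410 in Th Slc6a3 nuclei (0 to 0.651, below 1 in 4 of 4 libraries), but 1.13 once the 27 nuclei passing both gates were left out. That value rests on 15 Slc26a7 nuclei and an expected number of 2.04, and the libraries differed, with 1.48 in female 2, 1.44 in male 1 and 0.166 in male 2. In Gad2 nuclei the ratio was 0.631, below 1 in 3 of 4 libraries. Aldh1a1 with Sox6 was low in either set (0.418, and 0.386 without the nuclei passing both gates), as was Wnt2 with Sox6 (0.306 and 0.331). Without thinning, 285 Th Slc6a3 nuclei did not pass both gates, and 122 of them held Aldh1a1, 120 Wnt2 and 62 Sox6. Of the 62 with Sox6, 18 held Aldh1a1 and 18 held Wnt2.

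Slc26a7 and Wnt2 went together. Their ratio was 2.21 in Th Slc6a3 nuclei (above 1 in 3 of 4 libraries), 1.19 in Gad2 nuclei and 3.58 in remaining Ddc nuclei (each above 1 in 4 of 4). The first ratio was 1.82 without the nuclei passing both gates, from 15 Slc26a7 nuclei, 9 of them with Wnt2, and an expected number of 0.892. In Gad2 nuclei, 93 had Slc26a7, 85 had Wnt2 and 61 had both. Tmem207 was rarer there, and 28 of its 33 nuclei (84.8%) had Slc26a7, while its ratio with Wnt2 was 1.60 (above 1 in 4 of 4). In Th Slc6a3 nuclei the ratio of Tmem207 with Wnt2 was 1.20 (1.08 to 1.55, above 1 in 4 of 4), and with Calb1, the calcium buffer calbindin, 1.48 (1.28 to 1.67). Tmem207 with Slc26a7 was at 0.744 there, and at 1.65 without the nuclei passing both gates, from an expected number of 1.04. Aldh1a1 with Tmem207 had a ratio of 1.12 in Th Slc6a3 nuclei, and Aldh1a1 with Fignl1 0.801.

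To see which other genes differ where a member is present, nuclei with at least 2 UMIs of it were set against nuclei with 0 in the same library, and summed counts were tested across libraries (edgeR, library as block, Benjamini-Hochberg adjusted p under 0.05 over all genes). Genes named as higher or lower passed this test. Nuclei with a member can also be deeper, and the median depths are given. The splits reuse the same nuclei, so their results are not independent of each other.

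The Aldh1a1 split of Th Slc6a3 nuclei called more genes than the other splits: 105 nuclei with it (median 10156 UMIs) and 188 without (8918.5) differed in 478 of 7749 genes (6.17%), 220 higher (2.84%) and 258 lower (3.33%). Brinp3, a neural protein named for induction by retinoic acid, was higher with Aldh1a1, at 631 ± 174 CPM against 144 ± 49.2 (log2 difference 2.12 ± 0.14 SE, adjusted p = 1.3e-11). The secreted protein Nell1 was higher (1321 against 415), as were the collagen lysyl hydroxylase Plod2 (331 against 57.2), the transcription cofactor Lmo3 (259 against 46.9) and the RNA-binding protein Raver2 (423 against 76.6). The adhesion and migration genes Astn2, Cdh8 and Lrrtm4 and the signalling genes Tmem132d and Plcb1 were also higher, by 1.23 to 1.89 on the log2 scale. Lower genes included Shisa6, an AMPA receptor partner (79.7 against 422), the phosphodiesterase Pde11a (22.0 against 210), the netrin receptor Unc5d (43.8 against 226), and Tmeff2, Nckap5 and Cntnap4. The calcitonin receptor Calcr had no UMI in nuclei with Aldh1a1 and 109 CPM in those without.

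Among 22 other subtype genes tested in the Aldh1a1 split, 5 were higher and 7 lower (median log2 difference -0.14, against 0.00 over all genes). Of the higher ones, Lpl lost its call without any 1 of the 4 libraries (adjusted p up to 0.30), Tacr3 without female 1 or female 2 (0.25 and 0.14) and Adcyap1 without male 1 (0.46), and 3 remained higher without female 2. The neuropeptide Grp lay almost wholly on the Aldh1a1 side (80.4 ± 20.1 against 0.548 ± 1.10 CPM; log2 difference 6.53 ± 0.56 SE, adjusted p = 7.4e-10). Neurotensin (Nts) was on the other side, at 3.61 ± 4.32 against 126 ± 66.3. The neurotrophin Ntf3 (20.8 against 142), cholecystokinin (Cck, 457 against 1144), the CRH-binding protein Crhbp (5.82 against 52.7) and the GABA transporter Slc32a1 (2.58 against 32.9) were lower with Aldh1a1, and the transcription factor Tcf12 was higher (924 against 559). Only 2 of the 27 nuclei passing both gates had Aldh1a1. Gad2 nuclei held Slc32a1 at 239 CPM and Crhbp at 139, against 22.8 and 34.7 in Th Slc6a3 nuclei. Without these 27 nuclei the split called 487 genes, 413 of them among the 478, and the Slc32a1 and Crhbp differences without them are not given. Vip was also called lower, but its UMIs lay in 2 of 4 libraries. Sox6, chosen after its value was seen, was lower (52.2 against 118), and leaving out male 1 ended that call (adjusted p = 0.12).

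Of 16 dopamine identity genes tested across the Aldh1a1 split (the gate genes Ddc, Th and Slc6a3 were left out), none was higher and 1 was lower: Lmx1a, a transcription factor of midbrain dopamine neurons (134 against 231; log2 difference -0.81 ± 0.16 SE, adjusted p = 0.00094). The list's median log2 difference was -0.25. Of 5 Wnt and FGF receptor genes tested, Fgfr1 was lower (21.5 against 54.3), a call that ended without female 1 (adjusted p = 0.26). Among 14 relatives of the members, Fign, a paralog of Fignl1, was lower (3.31 against 29.7). Fgf9 was higher (76.0 against 38.7), a call that ended without male 1 and without male 2 (adjusted p = 0.17 and 0.26). The 1 retinoid gene tested besides Aldh1a1 did not pass.

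Oligodendrocyte transcripts moved with the same split. Of 4 oligodendrocyte markers (Mobp, Mog, Mag and Opalin) 2 were tested and 1 was lower with Aldh1a1, Mog at 2.53 ± 2.99 against 26.8 ± 17.5 CPM, a call that ended with doublet calls kept (adjusted p = 0.91) and with DESeq2 (0.063). The 4 summed markers ranged from 17.2 to 26.5 CPM in nuclei with Aldh1a1 and from 29.8 to 136 in those without, and over the libraries together none of the 4 was at 0 on either side. With nuclei restricted to at most 1 UMI over these markers, a limit added after they were seen to differ, 443 genes were called, and the genes named above for Aldh1a1 other than Mog remained called where tested. The part of these transcripts in the other differences was not tested.

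**Figure D4:**
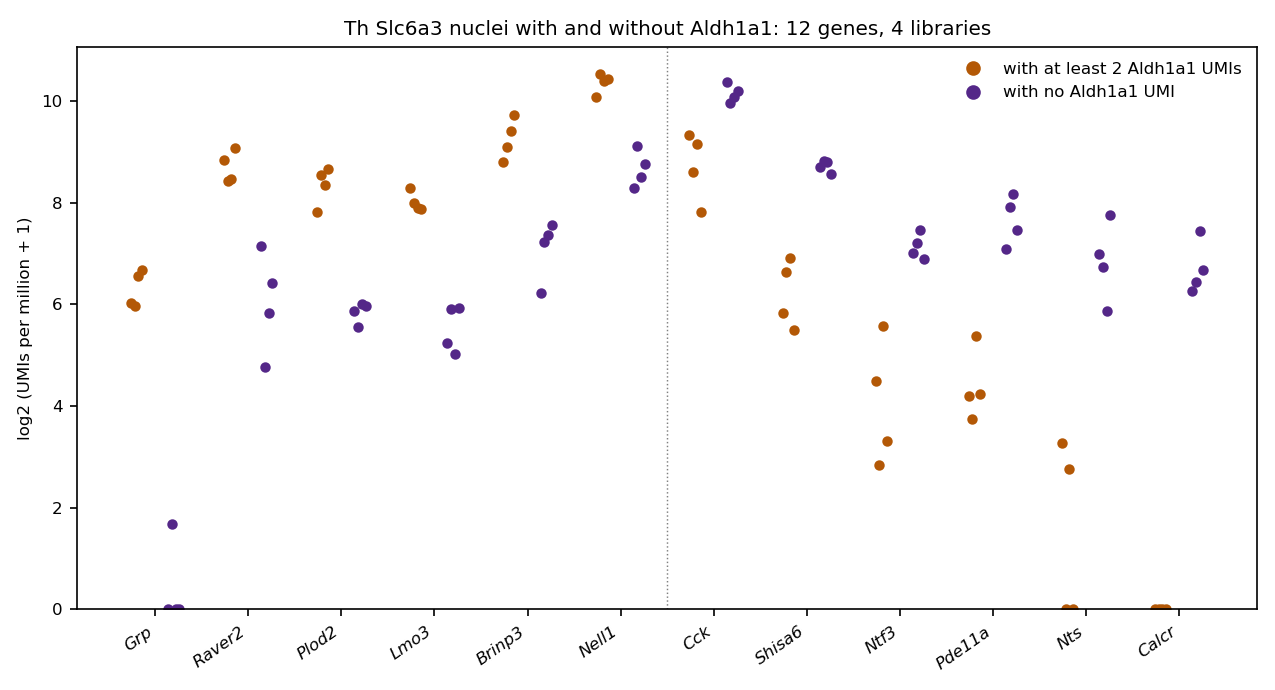
Level of 12 genes in Th Slc6a3 nuclei with at least 2 Aldh1a1 UMIs and with 0, on the scale log2(CPM + 1), with 1 point per library in each colour. Grp, Raver2, Plod2, Lmo3, Brinp3 and Nell1 are higher with Aldh1a1 in all 4 libraries, and Cck, Shisa6, Ntf3, Pde11a, Nts and Calcr lower.

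The other members were read across the Aldh1a1 split without a test. For this and the other splits, the share of all genes with 1 direction in 4 of 4 libraries was not counted. Anxa1 (34.2 ± 22.7 against 2.15 CPM) and Neurod6 (107 ± 26.8 against 29.8 ± 10.9) were higher with Aldh1a1 in 4 of 4 libraries. Slc26a7 (13.4 against 85.6) and Slc10a4 (17.2 against 27.8) were lower in 4 of 4. These Slc26a7 values include the 27 nuclei passing both gates, which held 159 of the group's 195 Slc26a7 UMIs. Only 2 of these 27 had Aldh1a1, and the Slc26a7 difference without them is not given. Wnt2 (129 against 88.8), Tmem207 (160 against 139) and Fignl1 (37.6 against 56.5) did not keep 1 direction in all libraries.

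Neurod6 split Th Slc6a3 nuclei into 46 with and 224 without (median 9308 and 8837.5 UMIs), a split added after the numbers of nuclei were seen. It called 116 of 7601 genes (1.53%; 66 higher, 0.868%, and 50 lower, 0.658%), but 19 when male 1 was left out. Raver2 was higher with Neurod6 (455 ± 99.9 against 102 ± 45.4 CPM; log2 difference 2.21 ± 0.20 SE, adjusted p = 3.7e-07), as were the cation channel Trpc4 (193 against 44.5), Plod2 (284 against 87.2) and the orexin receptor Hcrtr2 (215 against 54.1). Sox6 was lower (5.99 ± 8.94 against 142 ± 74.6; log2 difference -4.67 ± 0.50 SE, adjusted p = 5.1e-06), as was the receptor tyrosine kinase Alk (33.9 against 183). These 6 genes kept their call without male 1. Of 22 other subtype genes, 2 were higher and 7 lower (median -0.06), but 0 and 2 without male 1, when Cck, Crhbp, Grp, Kcnj6, Ntf3, Slc32a1 and Tcf12 lost their call. Of 16 dopamine identity genes none passed in either direction. In this split Aldh1a1 (709 against 207) and Wnt2 (176 against 81.4) were higher, and Tmem207 (71.1 against 161) and Slc26a7 (25.6 against 71.6) lower, in 4 of 4 libraries each. The Slc26a7 values include the nuclei passing both gates, which held most of its UMIs. Fgf20 was also lower in 4 of 4 (7.85 against 14.8), but from only 4 UMIs with Neurod6 and 33 without.

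Wnt2 split Th Slc6a3 nuclei into 80 with (median 11192 UMIs) and 168 without (7786), the largest depth gap of these splits. Of 7252 genes, 49 were called (0.676%; 33 higher, 0.455%, and 16 lower, 0.221%). Without the nuclei passing both gates 54 of 6505 were called, and only 23 of them were among these 49. Sox6 was lower with Wnt2 (8.29 ± 7.69 against 162 ± 67.8 CPM; log2 difference -4.11 ± 0.37 SE, adjusted p = 2.3e-05), as was Nts (6.70 against 143). Higher genes were the TGF-beta co-receptor Tgfbr3 (232 ± 21.5 against 84.1 ± 2.47; log2 difference 1.49 ± 0.18 SE, adjusted p = 0.00026), the syndecan Sdc2 (602 against 307) and Antxr2 (52.8 against 5.83). Wdpcp, Ntng1, Nkain2 and Nkain3 were also higher, but lost their call once the nuclei passing both gates were left out, with adjusted p of 0.51, 0.12, 0.082 and 0.26. Of 21 other subtype genes, 2 were higher and 3 lower (median -0.20). The higher ones, Bdnf and Foxp2, lost their call without any 1 of the 4 libraries (adjusted p up to 0.22 and 0.14). Of 15 dopamine identity genes none passed. Neurod6 was higher with Wnt2 in 4 of 4 libraries (77.2 against 36.8).

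Tmem207 split Th Slc6a3 nuclei into 78 with (median 10376 UMIs) and 205 without (9130) and called 206 of 7213 genes (2.86%; 90 higher, 1.25%, and 116 lower, 1.61%). Higher with Tmem207 were the ryanodine receptor Ryr3 (543 ± 43.5 against 213 ± 53.8 CPM; log2 difference 1.38 ± 0.14 SE, adjusted p = 1.2e-07), the contactin Cntn5 (1085 against 522), Pde11a (244 against 103) and the nicotinic receptor subunit Chrnb3 (263 against 131). Il1rap, the neighbouring gene of Tmem207 in GRCr8, was higher too (230 ± 39.2 against 97.9 ± 7.49; log2 difference 1.24 ± 0.17 SE, adjusted p = 1.7e-05). Nts (1.23 against 120), Sorcs3 (81.6 against 371) and Brinp3 (108 against 409) were lower. Of 20 other subtype genes 3 were higher and 2 lower (median 0.09), and of 16 dopamine identity genes 2 were higher (median 0.30), Chrnb3 and Chrna6. The Chrna6 call ended with DESeq2 (adjusted p = 0.35) and without female 2, male 1 or male 2 (0.063, 0.18 and 0.083), and Slc32a1, 1 of the 2 lower subtype genes, lost its call without female 1 or male 2 (0.085 and 0.062). The oligodendrocyte marker Mog was higher with Tmem207 (43.7 against 9.96), 1 of 2 markers tested, and its call ended with doublet calls kept (adjusted p = 0.92) and with at least 1 Tmem207 UMI in place of 2 (0.069). The 4 summed markers ranged from 29.3 to 219.8 CPM with Tmem207 and from 25.6 to 61.0 without. With nuclei restricted to at most 1 UMI over these markers 227 genes were called, 187 of them among the 206. Neurod6 was lower with Tmem207 in 4 of 4 libraries (46.3 against 60.1).

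In Gad2 nuclei, Slc26a7 gave 74 nuclei with and 56 without at almost equal depth (median 8556 and 8534.5 UMIs), again a split added after the numbers were seen. It called 101 of 5108 genes (1.98%; 46 higher, 0.901%, and 55 lower, 1.08%). Higher with Slc26a7 were Wdpcp, a ciliary gene (1190 ± 268 against 321 ± 73.0 CPM; log2 difference 1.89 ± 0.18 SE, adjusted p = 4.4e-08), Ano3 of the anoctamin family (318 against 48.8), the vesicle-release gene Cadps2 (873 against 290), the metabotropic glutamate receptor Grm8 (3921 against 1853) and Crhbp (189 against 70.8). Lower were Lrrtm4 (1550 against 4153), Tmtc2 (54.1 against 340), Astn2 (230 against 813), Cdh18 (51.5 against 318), Car10 (68.6 against 515) and the chromatin organiser Satb1 (25.7 against 113, with adjusted p = 0.51 without female 1). Nts had no UMI on the Slc26a7 side and lay in 3 of 4 libraries on the other. Over all Gad2 nuclei it had 30, 29, 1 and 0 UMIs, so nearly all lay in the female libraries. It was also called between the sexes in Gad2 nuclei (log2 difference 5.68, edgeR adjusted p = 0.00082). Of 14 other subtype genes 1 was higher and 2 lower (median 0.03), and of 9 dopamine identity genes none passed (median 0.80). Wnt2 was higher with Slc26a7 in 4 of 4 libraries (204 against 111), and Aldh1a1 lower in 3 of 4 (50.6 against 107). The split of Gad2 nuclei by Wnt2 called 32 of 4547 genes (0.704%), and 4 without female 2.

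The 2 gates were also compared over all other genes, with the gate genes left out. Between Th Slc6a3 and Gad2 nuclei, 2000 of 8939 genes differed (22.4%), 1051 higher in Th Slc6a3 nuclei (11.8%) and 949 lower (10.6%). The members are not counted here, since their levels chose them. Of 16 dopamine identity genes, 10 were higher in Th Slc6a3 nuclei and none lower (median log2 difference 0.87, against 0.01 over all genes). Examples are the vesicular transporter Slc18a2 (404 ± 56.4 against 44.2 ± 23.6 CPM; log2 difference 3.24 ± 0.19 SE, adjusted p = 6.1e-13), the dopamine receptor Drd2 (332 against 81.3), the tetrahydrobiopterin enzyme Gch1 (137 against 13.4) and the transcription factor Pitx3 (56.2 against 12.4).

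Of 22 other subtype genes tested between the gates, 14 were higher in Th Slc6a3 nuclei and 4 lower (median 0.97). Tacr3, the neurokinin B receptor (225 ± 45.1 against 9.60 ± 9.64), Zfhx3 (282 against 60.3), Satb1 (204 against 51.1) and Ntf3 (98.9 against 11.9) were higher. Gad2 nuclei, although chosen for having no Gad1 UMI, had more of the vesicular GABA transporter Slc32a1 (239 ± 18.1 against 22.9 ± 11; log2 difference -3.32 ± 0.20 SE, adjusted p = 1.1e-12), and also more of the vesicular glutamate transporter Slc17a6 (194 ± 59.0 against 26.3 ± 5.29). Vcan, listed both as a subtype gene and as a precursor marker, was higher in Gad2 nuclei as well (134 against 11.5).

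Genes of the members' own pathways were few. Of 3 retinoid genes tested, the retinol carrier Rbp4 was higher in Th Slc6a3 nuclei (34.4 against 12.8; log2 difference 1.44 ± 0.33 SE, adjusted p = 0.0017, and 0.079 with DESeq2), as was Aldh2 (16.3 against 6.57, adjusted p = 0.0495), whose call ended with DESeq2 (0.38), with DESeq2 size factors (0.052), with doublets kept (0.087) and without female 1 (0.087). Of 15 relatives of the members, Fgf13, Fgf1 and Anxa5 were higher and Anxa11 lower, and the Anxa5 call ended without female 1 and without male 2 (adjusted p = 0.15 and 0.13). Of 6 Wnt and FGF receptors, Ror1, a receptor for Wnt ligands, was lower in Th Slc6a3 nuclei (3.11 ± 1.27 against 35.7 ± 19.2; log2 difference -3.43 ± 0.46 SE, adjusted p = 1.5e-06). Fgfr1 was higher (41.9 against 23.2), a call that ended without female 1, without female 2 and without male 2 (adjusted p = 0.17, 0.078 and 0.082). No oligodendrocyte marker of the 3 tested passed in this comparison.

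The profile of each member over 20 sums (5 neuron groups in 4 libraries) was compared with 13472 genes by Pearson's r of log2(CPM + 1), as a description. The sums share libraries and gates. Aldh1a1 was nearest to an unnamed locus (AABR07021704.1, 0.977), Ammecr1 (0.972) and Mfsd6 (0.972). Anxa1 was nearest to Clptm1l (0.852), followed by Aldh1a1 (0.836). Neurod6 was nearest to Cpne7 (0.917), Slc26a7 to the calcium channel subunit Cacna2d3 (0.933) and Wnt2 to the neuregulin receptor Erbb4 (0.955). Tmem207 and Slc10a4 were both nearest to Chrnb3 (0.957 and 0.956), and Fgf20 to Raver2 (0.931). Fignl1 had Ddc among its 3 nearest genes (0.965).

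Sex is the factor named in the labels and played no part in choosing the members. In all Ddc nuclei, 7 of 11502 genes were called between females and males (0.0609%), and none was a member (edgeR; 499 genes had an unadjusted p under 0.05). In Th Slc6a3 nuclei 6 of 9089 genes were called (0.066%), in Gad2 nuclei 8 of 6540 (0.122%) and in remaining Ddc nuclei 6 of 9774 (0.0614%), again with no member. Aldh1a1 was lower in females in all Ddc nuclei by a log2 difference of -0.49 ± 0.13 SE (edgeR quasi-likelihood adjusted p = 0.97) and in Th Slc6a3 nuclei by -0.50 ± 0.17 (adjusted p = 0.997). The female libraries lay at 266 and 323 CPM in Th Slc6a3 nuclei and the male ones at 338 and 492. With 2 libraries per sex, how many of all genes keep the sexes apart in this way was not counted. In all Ddc nuclei the Aldh1a1 difference was called with replicate number as a block (edgeR adjusted p = 0.0041), although nothing in the labels pairs the numbers. Leaving out 1 library leaves a sex with 1 library and no spread of its own, so those fits are given by size only. Without male 2 the log2 difference in all Ddc nuclei was -0.61 for Aldh1a1 and 0.90 for Tmem207. In remaining Ddc nuclei the Aldh1a1 difference was -1.0 ± 0.40, and -1.51 without male 1.

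Anxa1 differed by -1.25 ± 0.52 SE between females and males in Th Slc6a3 nuclei (edgeR adjusted p = 0.997), on 3 and 9 UMIs in the female and 16 in each of the male libraries. Wnt2 differed by -0.48 ± 0.20, Neurod6 by -0.40 ± 0.25, Tmem207 by 0.25 ± 0.26, Fgf20 by 0.34 ± 0.45, Slc10a4 by 0.09 ± 0.32 and Fignl1 by 0.01 ± 0.26, none of them past the threshold. Slc26a7 differed by -1.42 ± 0.60 in Th Slc6a3 nuclei and by 0.44 ± 0.19 in Gad2 nuclei. The difference of these differences was -1.79 ± 0.46 (edgeR adjusted p = 0.15), in a test that called 8 of 8939 genes (0.0895%). Without female 2 the Slc26a7 difference in Th Slc6a3 nuclei was -3.33, with female 1 and its 6 Slc26a7 UMIs as the only female library. The difference between gates was -3.74 without female 2 and -2.70 without male 2. Over all alternatives the difference between gates ranged from -3.74 to -0.29, the smallest without male 1. Most Slc26a7 UMIs of Th Slc6a3 nuclei came from nuclei passing both gates, 2 of which were in female 1. A p that misses the threshold does not show that the sexes were alike at this depth.

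**Figure D5:**
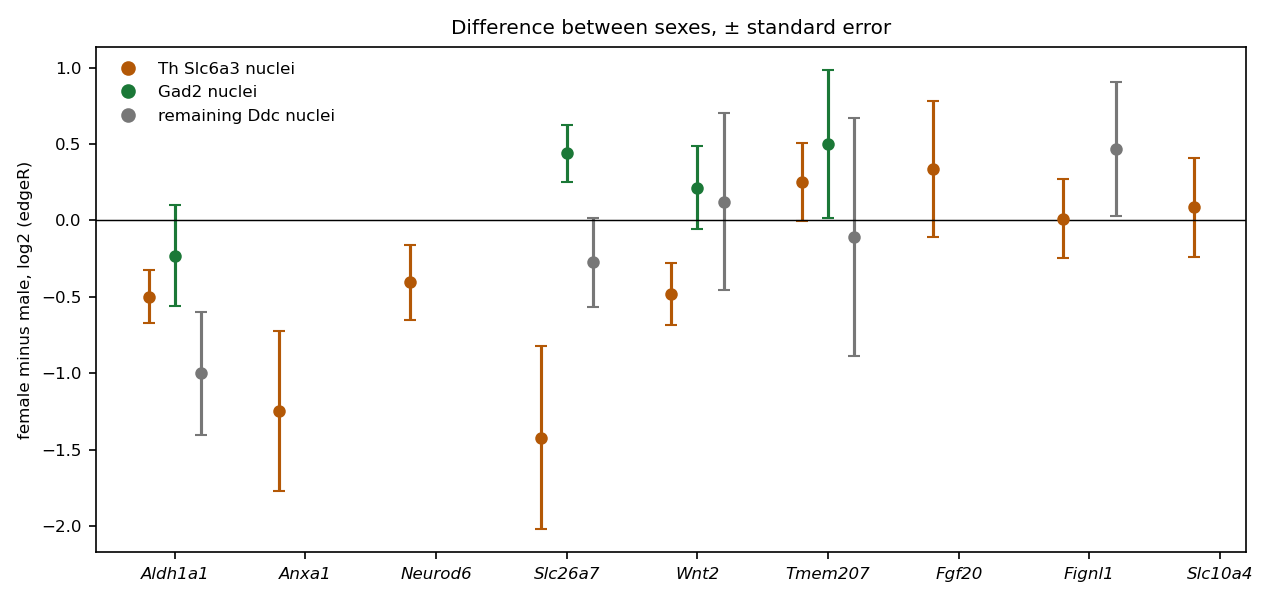
Female minus male log2 difference (edgeR) with its SE for each member that passed the low-count filter, in Th Slc6a3, Gad2 and remaining Ddc nuclei; the line marks 0. Aldh1a1 lies under 0 in each group shown, from -1.0 to -0.23, and Slc26a7 is under 0 in Th Slc6a3 nuclei and over 0 in Gad2 nuclei.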

How the data were processed

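The authors deposited unscaled UMI counts of 32883 genes per barcode, made with Cell Ranger (rn6), per the submitters' processing notes, and the file headers name software version 3.0.2. Barcodes under 200 genes or over 5% mitochondrial UMIs were removed (6), as were the 980 highest doublet scores (4.54%; Scrublet in scanpy 1.11.5). The members, gates and gene lists were chosen with earlier results of these data known.

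Summed counts were tested with edgeR 4.0.16 in R 4.3.3 (quasi-likelihood test, TMM scaling, low-count filter, adjusted p under 0.05). Sex was fitted without covariates, and gates and splits with library as block. Gate genes (Ddc, Th, Slc6a3, Gad2, Gad1) and the split's member were left out of those 2 kinds of test. DESeq2 1.42.0, other scalings and filters, doublets kept and each library left out were alternatives; some genes, and 1 alternative that rests on one of them and lowered the number of calls in some splits, are not reported here. On simulated counts (changed genes of at least 200 UMIs, more than Anxa1, Fgf20 or Slc10a4 had in Ddc nuclei, with a dispersion of 0.02), the sex test recovered 68.6% of genes changed by a log2 fold change of 1 and 100% of those changed by 2 (11502 genes), and the comparison of gates 90.2% and 100% (8921 genes).

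Named genes are, for each list and test, at most 8 calls with the lowest p, and for each split the 10 lowest p in each direction among genes with at least 20 CPM on the higher side and 1 direction in all 4 libraries. Of the lists, 29 of 30 other subtype genes, 19 of 20 dopamine identity genes and 39 of 40 relatives of the members were found by symbol. Promoter windows come from RefSeq (GRCr8), and the counts use another build, so none of the counts were read by these coordinates.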

Additional observations from a re-analysis of the deposited data

Results flagged for a closer look

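In 3 of 42 groups of 4 libraries with more than 1 UMI of a member, 1 library stood apart from the other 3 in its level, where chance gives about 1 in 20. Male 2 was the highest library for 3 members in remaining Ddc nuclei: Aldh1a1 at 69.8 CPM (others 23.6 to 30.3), Neurod6 at 32.8 (7.79 to 9.61) and Slc26a7 at 42.3 (29.3 to 30.3). The summed serotonin markers were lowest (10.6) and the summed vascular markers highest (284) in the same group of the same library, and their part was not tested. Fgf20 was at 2.99 in Gad2 nuclei of female 2 and at 0.581 in GABA nuclei of male 2, with the other libraries at 0. Each of these 2 values is a single UMI, so the library that holds it had to stand apart.

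The sex difference in Th Slc6a3 nuclei minus that in Gad2 nuclei passed the test of the difference itself for genes named beside the members. It was 2.79 on the log2 scale for Samd5 (edgeR adjusted p = 0.00088), -2.12 for Calcr (adjusted p = 0.00088), -6.11 for Nts (adjusted p = 1.9e-06) and 2.79 for Dscaml1 (adjusted p = 0.0010). In Gad2 nuclei Nts had 30 and 29 UMIs in the female libraries and 1 and 0 in the male ones. DESeq2 called 0 genes in this test, and each of the 4 calls ended when some library was left out, which leaves 1 library in a sex. The Nts call ended without male 2 and the Calcr call without female 2. The Samd5 and Dscaml1 calls ended without female 1 and without male 1.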

How the results depend on the processing

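Of 2234 values for 201 called genes under the alternatives, 1964 stayed called in the same direction, 270 were no longer called and 0 reversed. Of 308 values for members in the sex tests, 299 stayed uncalled and 9 became called. Slc26a7 was called with no filter on low counts in Th Slc6a3 nuclei (adjusted p = 0.00059) and in the interaction of sex with gate (6.5e-05). Gad2 nuclei numbered 26 to 45 per library.

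Genes called between the sexes, as 1 library was left out, numbered 24 to 116 in Ddc nuclei (7 with all), 6 to 30 in Th Slc6a3 nuclei (6), 11 to 32 in Gad2 nuclei (8), 8 to 89 in remaining Ddc nuclei (6) and 3 to 32 for the interaction (8). With no filter they numbered 20, 27 and 57 in the 3 groups and 18 for the interaction, and with doublets kept 16 in Gad2 nuclei. With DESeq2 the interaction called 0. As a replicate block, the replicate number gave 90 in Ddc nuclei, 13 in Th Slc6a3, 39 in Gad2 and 11 in remaining Ddc nuclei; same-numbered libraries correlated at 0.18 over 11502 genes, with 2 pairs and no pairing in the labels. Without library as a replicate block, the comparison of gates called 1745, and the splits 352 (Aldh1a1), 104 (Neurod6), 74 (Slc26a7), 38 (Wnt2), 149 (Tmem207) and 11 (Wnt2 in Gad2 nuclei).

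Between gates, DESeq2 called 971 (1572 to 1741 leaving out 1 library, 2000 with all). In the splits it called 222 for Aldh1a1 (317 to 407; 478), 43 for Neurod6 (19 to 112; 116), 25 for Slc26a7 (52 to 79; 101), 18 for Wnt2 (13 to 55; 49), 2 for Wnt2 in Gad2 nuclei (4 to 18; 32) and 73 for Tmem207 (104 to 176; 206). No filter gave 127 and 61 for the Wnt2 splits, at least 1 UMI 83 for Wnt2 and doublets kept 18 for Wnt2 in Gad2 nuclei. Chosen after seeing the data, nuclei passing both gates left out gave 75 for Neurod6, and at most 1 oligodendrocyte marker UMI moved no split's count by over 1.5 times. A similar count can hide other genes: without the nuclei passing both gates, Wnt2 had 54 calls, only 23 of them among its 49.

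Thinned shares rise with depth by construction. At 4000 UMIs and without thinning, Aldh1a1 stood at 34.8% and 39.9% of Th Slc6a3 nuclei (26.2 to 29.2% leaving out 1 library), Anxa1 at 4.34% and 8.03% (2.11 to 3.33%), Neurod6 at 16.8% and 28.2% (9.28 to 11.0%), Tmem207 at 26.3% and 34.2% (16.3 to 20.6%), Fgf20 at 4.46% and 11.5% (2.12 to 2.61%), Fignl1 at 17.0% and 36.9% (8.55 to 9.36%) and Slc10a4 at 10.0% and 22.2% (4.88 to 5.35%). In Gad2 nuclei Slc26a7 stood at 49.6% and 61.2% (33.2 to 39.3%) and Wnt2 at 41.9% and 56.7% (22.7 to 26.9%).

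Leaving out the nuclei passing both gates turned the ratio of Aldh1a1 with Slc26a7 from 0.410 (0.324 to 0.497 leaving out 1 library) to 1.13 and moved Slc26a7 with Tmem207 from 0.744 (0.426 to 1.01) to 1.65. Without thinning, Aldh1a1 with Neurod6 was at 1.73 (1.86 to 1.99 thinned) and Neurod6 with Tmem207 at 1.01 (0.808 to 0.894). The cause of these changes was not tested.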

Other observations

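The remaining Ddc nuclei were divided, after their levels were seen, by Th, Slc6a3 and Slc17a6. The 122 with Th but under 2 Slc6a3 UMIs held Aldh1a1 at 46.8, 37.2, 131 and 128 CPM. Another 37 had Slc6a3 without Th, 121 had neither but held Slc17a6, and 199 had none of these. In male 2 the nuclei with Slc17a6 but neither dopamine gene held Neurod6 at 55.0, Slc26a7 at 91.6 and Wnt2 at 103 CPM. Outside the Ddc nuclei, 18 ungated nuclei with Slc17a7, the vesicular glutamate transporter of cortical and some subcortical neurons, held 23 of the Neurod6 UMIs.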
